A study of Mus musculus with 384 samples.

Results

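Interferon-stimulated genes were followed in single granulocyte/macrophage progenitors (GMPs), the precursors of neutrophils and monocytes in marrow. The list holds 45 genes chosen by name, with earlier results of these data known. All of them were found among the 46078 gene rows of the count tables through their Ensembl identifiers. They were grouped by role into signalling and its modifiers (6 genes), RNA and DNA sensors (9), oligoadenylate synthetases (5), antiviral effectors (13), interferon-inducible GTPases (6), antigen processing (3) and nuclear and PARP proteins (3). The questions were how high each gene stood in each set, in what share of cells it was read, and whether a difference between BCR-ABL and Control came from many cells or from few.

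The BCR-ABL group held 3 sets of sorted cells, labelled replicates 1, 2 and 4, from C57Bl/6 mice in which BCR/ABL had been induced; the Control group held 1 set, labelled C57Bl/6 and control. The mice are described as Scl-tTA::TRE-BCR/ABL, in which the Scl promoter drives the tetracycline transactivator and BCR/ABL, the fusion oncogene of chronic myeloid leukaemia, is switched on once doxycycline is withdrawn. They were kept on doxycycline at 20 mg per L until 5 weeks of age, and BCR-ABL and Control mice were studied 5 to 6 weeks after induction. The labels give no genotype for the Control mice and do not say whether they carried either transgene, how many animals a set pools, or whether marrow was crushed or flushed for it. GMPs were sorted 1 per well by lack of lineage markers and Sca-1 and by c-Kit, CD34 and FcγR, and their RNA was read as full-length cDNA (SMART-seq2). Of 96 wells per set, 76, 61 and 92 BCR-ABL wells and 94 Control wells passed the filter of 50000 reads on genes and 1000 genes. Their reads summed to 126157027, 121378632 and 140995697 in BCR-ABL 1, 2 and 4 and to 139684338 in Control. No pair of kept wells held identical counts (0 pairs).

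The sets differed in other ways that move with the groups. Xist reached 5 CPM (reads scaled to a total of 1000000 reads on genes in each well or set) in 75 of 76, 0 of 61 and 3 of 92 BCR-ABL wells and in 94 of 94 Control wells, so BCR-ABL 1 resembles Control in this respect and the other two BCR-ABL sets do not. All 10 monocyte markers had a negative log2 fold change, and their summed level was 1385, 1487 and 795 CPM in BCR-ABL 1, 2 and 4 against 2988 CPM in Control. All 12 neutrophil markers tested had a positive one. Of wells thinned to 674952 reads, 41.5%, 61.1% and 19.8% of BCR-ABL wells and 86.7% of Control wells held at least 10 reads of Irf8, the transcription factor that directs progenitors to monocytes. With a single Control set, condition and set cannot be told apart.

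Interferons act through separate receptors. Type I interferons bind a receptor made of IFNAR1 and IFNAR2, which activates the kinases JAK1 and TYK2; these phosphorylate STAT proteins, which join IRF9 and bind the interferon-stimulated response element (ISRE). Type II interferon binds IFNGR1 and IFNGR2 and acts mainly through the gamma-activated site (GAS). The genes so induced block viral entry, translation and replication, sense foreign nucleic acid and load antigen on MHC class I. In marrow, stem and progenitor cells are known to express a basal share of these genes without infection, and interferon pushes dormant stem cells into cycle.

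Promoter letters were read first, because the ISRE is the element bound by STAT proteins joined to IRF9. RefSeq windows (GRCm38.p6, 250 bases before to 50 bases after a start) were found for 35 of the 45 genes. Usp18, Zbp1, Mx1 and Mx2 are among those without a window. An ISRE core, spelled GAAANNGAAA and searched on both strands with overlaps counted, lay in a window of 18 of these 35 genes (51.4%), against 3.99% of 27025 genes with a window. A GAS, spelled TTCNNNGAA, lay in 9 of 35 (25.7%) against 9.55%. A match is a string of letters and not a measured binding site. The 150 bases before the start are shown for 7 genes whose level is described below and that hold an ISRE there, with ISRE letters in capitals, and for Ifi209, which holds none in its window.

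Isg15 (chr4:156200819-156200968, minus strand): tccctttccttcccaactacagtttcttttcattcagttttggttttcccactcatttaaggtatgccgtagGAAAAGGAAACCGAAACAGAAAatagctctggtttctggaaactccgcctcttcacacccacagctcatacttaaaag

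Oas1a (chr5:120907526-120907675, minus strand): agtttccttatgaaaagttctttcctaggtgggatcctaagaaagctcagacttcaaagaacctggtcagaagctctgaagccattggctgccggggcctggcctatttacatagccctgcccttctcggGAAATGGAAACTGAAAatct

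Gbp2 (chr3:142620513-142620662, plus strand): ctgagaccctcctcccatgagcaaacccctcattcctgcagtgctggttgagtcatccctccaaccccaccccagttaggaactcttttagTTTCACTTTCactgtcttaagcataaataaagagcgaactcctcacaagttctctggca

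Gbp3 (chr3:142559894-142560043, plus strand): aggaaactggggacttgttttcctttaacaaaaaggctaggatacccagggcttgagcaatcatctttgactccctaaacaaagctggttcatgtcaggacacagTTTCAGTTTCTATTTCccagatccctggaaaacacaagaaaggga

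Ifi203 (chr1:173942493-173942642, minus strand): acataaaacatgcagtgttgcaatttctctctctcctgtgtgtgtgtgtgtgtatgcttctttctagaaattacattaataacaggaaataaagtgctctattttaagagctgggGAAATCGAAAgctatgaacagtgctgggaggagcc

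Trim30a (chr7:104465194-104465343, minus strand): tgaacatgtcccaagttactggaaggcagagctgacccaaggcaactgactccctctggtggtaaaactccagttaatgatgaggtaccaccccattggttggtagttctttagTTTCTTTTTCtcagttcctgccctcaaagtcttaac

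Bst2 (chr8:71537473-71537622, minus strand): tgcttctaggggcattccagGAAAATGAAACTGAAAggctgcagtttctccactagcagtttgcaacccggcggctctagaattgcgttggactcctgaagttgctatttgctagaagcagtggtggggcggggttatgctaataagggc

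Ifi209 (chr1:173630709-173630858, plus strand): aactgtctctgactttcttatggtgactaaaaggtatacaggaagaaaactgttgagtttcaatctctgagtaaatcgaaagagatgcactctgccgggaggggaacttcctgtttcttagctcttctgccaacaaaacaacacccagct

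Isg15 held 3 overlapping cores starting 78, 72 and 66 bases before its start, while Oas1a held 2 whose first letter lay 20 and 14 bases before it. In Gbp2, Gbp3 and Trim30a the core lay on the opposite strand, so it reads TTTCNNTTTC. Tap1 and Psmb9 have divergent starts, and their windows (chr17:34187306-34187605 and chr17:34187281-34187580) overlap; neither holds an ISRE core, and the window of Psmb8 holds a GAS.

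Across the list, levels were lower in BCR-ABL than in Control GMPs, with no member past the test. Summed over a set, the 45 genes took 1600 ± 109 CPM in BCR-ABL (SD, n = 3) and 2239 CPM in Control. After the filter on low counts 43 members were tested and 2, Ifi205 and Ifit3, were not. Of those tested, 35 were negative on the log2 scale (45.8% of all 20324 genes tested were), with a median of -0.58 against 0.05 for all genes. This holds for the chosen list: in a second list of interferon-inducible genes, 28 of 57 tested were negative, with a median of 0.01. All 3 BCR-ABL sets lay below Control for 33 members (27.8% of all genes) and above it for 0 (23.2% of all genes). Taken singly, BCR-ABL 1, BCR-ABL 2 and BCR-ABL 4 each lay below Control for 37 of 43 members (52.1%, 51.5% and 48% of all genes). Whether these counts go with the difference in Xist was not tested.

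At an unadjusted p under 0.05, 10 members were lower (3.39% of all genes) and 0 were higher (3.79%). They were Usp18, Zbp1, Ifi203, Mx1, Mx2, Ifi44, Cmpk2, Trim30a, Gbp2 and Tap1. Of these, Mx1 and Ifi44 passed the filter on low counts through their Control reads alone, so they could only come out lower. The same holds in every count of members that includes them. With edgeR's quasi-likelihood test and Benjamini-Hochberg adjustment over all genes, 0 of 43 members passed (0% of all genes; 0 of 20324, of which 1459 had an unadjusted p under 0.05). The smallest adjusted p of a member was 0.619. DESeq2 on the same sums called 4 members, all lower (Ifi203, Gbp2, Trim30a and Mx2), where 0.822% of all genes were called lower; limma-voom called 0 genes of all (1659 at an unadjusted p under 0.05), with 15 members at an unadjusted p under 0.05. With 3 BCR-ABL sets and 1 Control set the test has 2 residual degrees of freedom, and it takes the lone Control set to vary as the BCR-ABL sets do. The labels do not say that the sets are separate animals, so the p-values measure the spread between these sets, which may in part be technical.

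**Figure D1:**
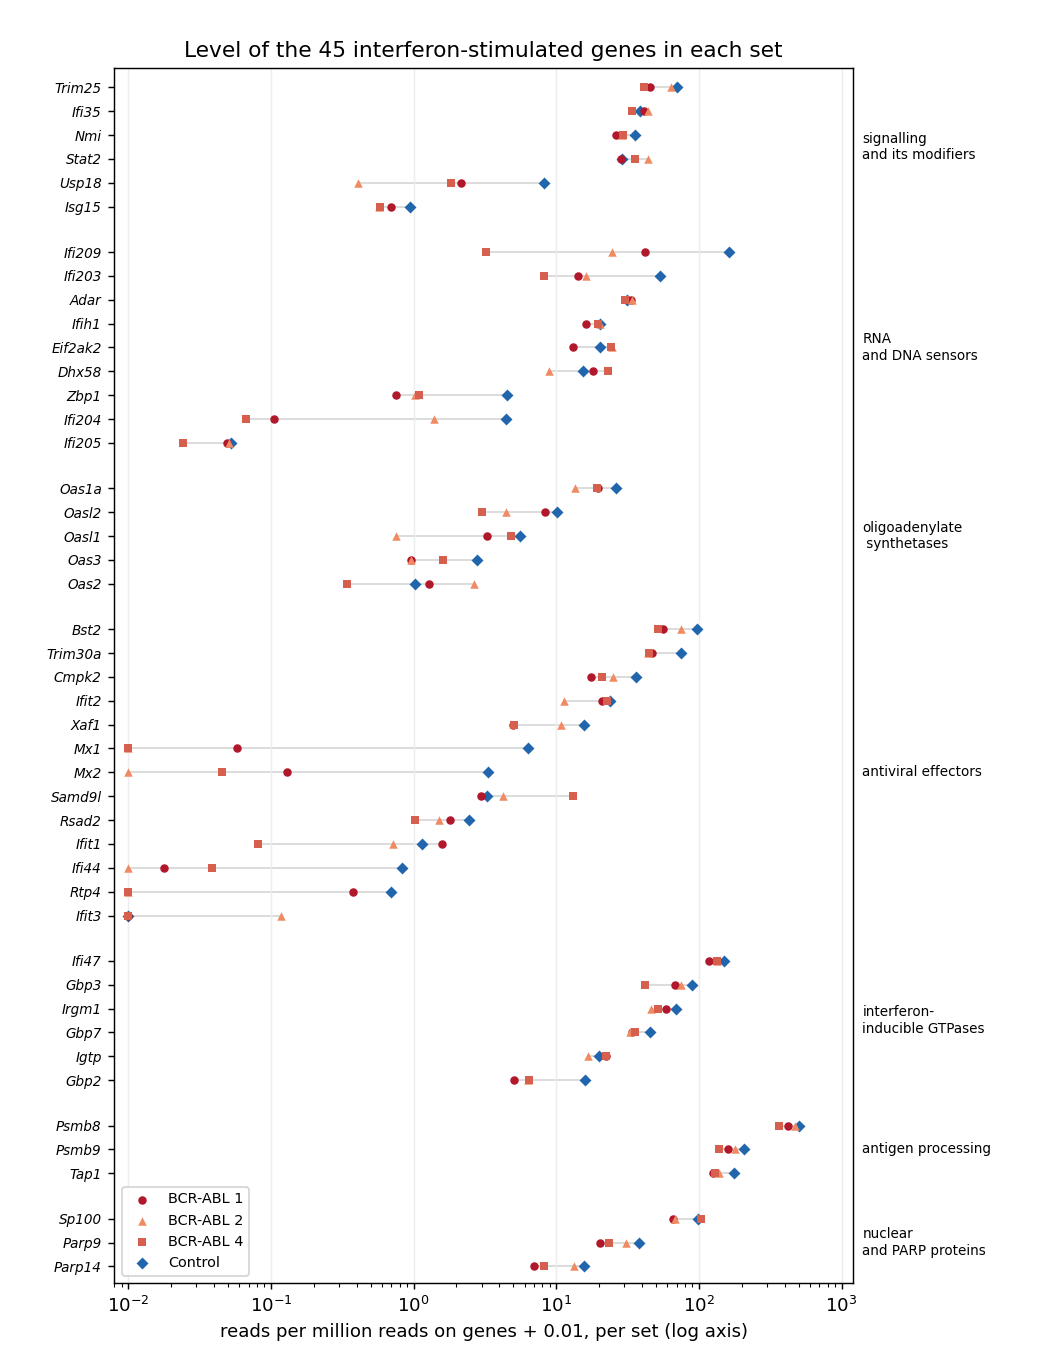
CPM (plus 0.01, log axis) of each of the 45 genes in BCR-ABL 1, 2 and 4 (warm colours) and Control (blue diamonds), grouped by role; each point is 1 set. The diamond lies to the right of all 3 BCR-ABL points for most genes, by the widest distance on this axis in Mx1, Mx2 and Ifi44. Stat2, Dhx58, Adar and Samd9l are among the 10 tested genes that are mixed.

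Among genes of interferon signalling and its modifiers, 4 of 6 had a negative log2 fold change and 1 had an unadjusted p under 0.05. Usp18, which removes the ISG15 modifier from proteins and damps the type I receptor (ENSMUSG00000030107, mm10 chromosome 6, 121245906 to 121270917), stood at 2.15, 0.396 and 1.81 CPM in BCR-ABL 1, 2 and 4 and at 8.26 CPM in Control. Every BCR-ABL set lay below Control, and the log2 fold change was -2.49 (SE 0.91, p = 0.0464, adjusted p = 0.687). Its Control reads came from 20 wells, and 3 of those wells sufficed for 50% of its 1154 reads. Isg15 itself, the ubiquitin-like modifier, was low throughout, at 0.682, 0.56 and 0.575 CPM in BCR-ABL and 0.938 CPM in Control. Trim25, a ubiquitin ligase that activates the RNA sensor RIG-I, stood at 45.6, 63.6 and 41.2 CPM against 70.8 CPM in Control (log2 fold change -0.48, SE 0.30). Nmi and Ifi35, partner proteins in interferon signalling, differed by -0.33 (SE 0.19) and by 0.07 (SE 0.24) on the log2 scale; 16.8% of the exon length of Ifi35 is shared with another gene, whose reads may not be told apart. Stat2 went the other way without passing the test, at 28.7, 43.7 and 35.8 CPM in BCR-ABL against 29.1 CPM in Control.

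The nucleic acid sensors split into genes that differed widely and genes that hardly differed. Ifi203 and Ifi209 are PYHIN proteins, a family that binds DNA in the nucleus and cytosol. Their genes are near each other on chromosome 1, with Ifi204, another member, between them. Ifi203 (ENSMUSG00000039997, 173920407 to 173942672) stood at 14.3, 16.2 and 8.19 CPM in BCR-ABL 1, 2 and 4 and at 53.6 CPM in Control, which is -2.03 as a log2 fold change (SE 0.42, p = 0.00609, adjusted p = 0.619). Ifi209 (ENSMUSG00000043263, 173630917 to 173647928) stood at 41.8, 24.5 and 3.21 CPM in BCR-ABL and at 163 CPM in Control (log2 fold change -2.78, SE 1.18, p = 0.0702). All 3 BCR-ABL sets lay far below Control in both genes, and in Ifi209 BCR-ABL 4 lay far below the other two. The PYHIN, Gbp and Oas genes have close relatives beside them, among which reads could be split in counting. Zbp1, a sensor of left-handed nucleic acid that triggers necroptosis, stood at 0.745, 1.02 and 1.08 CPM against 4.55 CPM in Control (log2 fold change -2.24, SE 0.51, p = 0.00872). Dhx58, a helper of the RNA sensors, and Eif2ak2, the kinase PKR that stops translation, differed by 0.12 (SE 0.57) and by 0.05 (SE 0.43) on the log2 scale, and their BCR-ABL sets lay on both sides of Control.

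Of the oligoadenylate synthetases, which make the messenger that activates RNase L, 4 of 5 had a negative log2 fold change and 0 had an unadjusted p under 0.05. Oas1a, the one with the highest level per length, stood at 19.7, 13.5 and 19.2 CPM in BCR-ABL and 26.4 CPM in Control (log2 fold change -0.58, SE 0.31, p = 0.125). Oasl1 and Oasl2, whose proteins resemble the synthetases, differed by -0.91 (SE 1.0) and by -0.92 (SE 0.64) on the log2 scale. All 3 BCR-ABL sets lay below Control in these 3 genes, within the error of the fit.

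Among antiviral effectors 11 of 12 tested members had a negative log2 fold change, and 5 had an unadjusted p under 0.05. Bst2, or tetherin, which holds budding virus at the cell surface, had the highest level per length of the class, with 56.5, 74.4 and 51.4 CPM in BCR-ABL and 97.7 CPM in Control (log2 fold change -0.67, SE 0.26, p = 0.0539). Trim30a, a brake on inflammatory signalling (ENSMUSG00000030921, chromosome 7, 104409025 to 104465193), stood at 47.0, 44.3 and 44.8 CPM in BCR-ABL and 75.5 CPM in Control, or -0.71 as a log2 fold change (SE 0.16, p = 0.00815). Its 3 BCR-ABL values lay close together and apart from Control. Cmpk2, a mitochondrial nucleotide kinase next to Rsad2 on chromosome 12, stood at 17.4, 24.9 and 20.9 CPM against 36.1 CPM in Control (log2 fold change -0.76, SE 0.27, p = 0.0414). Rsad2, or viperin, which makes a chain-terminating nucleotide, stood at 1.79, 1.49 and 1.01 CPM against 2.45 CPM in Control (p = 0.276).

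The Mx GTPases trap viral nucleoproteins, and the Mx1 allele of C57BL/6 mice is known to carry a deletion that inactivates its protein. Mx1 (ENSMUSG00000000386, chromosome 16, 97447035 to 97462907) had 6 reads in 1 well of BCR-ABL 1, 0 reads in BCR-ABL 2 and 0 reads in BCR-ABL 4, and 881 reads in 6 of 94 Control wells, of which 463 came from 1 well. Mx2 had 15, 0 and 5 reads in BCR-ABL and 466 reads in 12 Control wells. Ifi44, a GTPase-like antiviral protein, had 1, 0 and 4 reads in BCR-ABL and 114 reads in 6 Control wells. These 3 genes had unadjusted p of 0.00744, 0.0224 and 0.0181, but each rests on a handful of Control wells: Mx1 was called at 5 CPM in 6.38% of Control wells (exact 95% interval 2.38 to 13.4%) and in 0% of BCR-ABL wells, with upper bounds of 4.74, 5.87 and 3.93% in sets 1, 2 and 4. Ifit1 and Ifit3, which bind viral RNA ends, were barely read. Ifit1 had 197, 86 and 10 reads in BCR-ABL and 158 in Control, and Ifit3 had 0, 13 and 0 in BCR-ABL and 0 in Control. Its near-identical copy Ifit3b stood at 0 CPM in every set, though reads that match both copies may not have been counted.

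The interferon-inducible GTPases coat the vacuoles of parasites and bacteria. Ifi47 and Gbp3 led this class by level per length. Ifi47 stood at 118, 135 and 135 CPM in BCR-ABL and 150 CPM in Control (log2 fold change -0.20, SE 0.15), and Gbp3 at 68.1, 75.1 and 42.1 CPM against 89.1 CPM in Control (-0.51, SE 0.37). Gbp2 (ENSMUSG00000028270, chromosome 3, 142620602 to 142638008), a neighbour of Gbp3, differed by more: 5.08, 6.37 and 6.41 CPM in BCR-ABL against 15.9 CPM in Control, or -1.40 as a log2 fold change (SE 0.30, p = 0.00723, adjusted p = 0.619). The 3 BCR-ABL values of Gbp2 lay close together and well apart from Control. Igtp had a log2 fold change of 0.06 (SE 0.29), with BCR-ABL sets on both sides of Control.

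The antigen processing class had the highest summed CPM of the 7 roles in every set, at 711, 787 and 634 CPM in BCR-ABL and 888 CPM in Control. Psmb8 and Psmb9 are the subunits that turn the proteasome into the immunoproteasome, Tap1 is part of the peptide pump into the endoplasmic reticulum, and the 3 genes lie side by side on chromosome 17 in the MHC region. Psmb8 had a mean of 131 CPM per kilobase of exon over the 4 sets, the highest of the 45 genes, and stood at 424, 470 and 366 CPM in BCR-ABL and 506 CPM in Control (log2 fold change -0.25, SE 0.19). Psmb9 stood at 160, 179 and 138 CPM in BCR-ABL and 207 CPM in Control (-0.36, SE 0.20). Tap1 stood at 126, 139 and 130 CPM in BCR-ABL and 175 CPM in Control (-0.39, SE 0.14, p = 0.0439, adjusted p = 0.684). All 3 differences were small in fold, and Tap1 alone had an unadjusted p under 0.05. Of the exon length of Psmb8, 14.7% is shared with another gene.

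Nuclear and PARP proteins had negative log2 fold changes in 3 of 3. Sp100, of nuclear bodies, stood at 65.95, 68.1 and 103 CPM in BCR-ABL and 99.2 CPM in Control, so the groups overlapped. Parp9 and Parp14, ADP-ribosyl transferase family members that are near each other on chromosome 16, differed by -0.60 (SE 0.29) and by -0.71 (SE 0.45) on the log2 scale, with all 3 BCR-ABL sets below Control in both. For the other 13 members of the list, Stat2 among them, the log2 fold change lay between -3.09 (Ifi204) and 1.07 (Samd9l), except that Ifi205 was not tested. Samd9l, which restrains growth factor receptors, was highest in BCR-ABL 4, at 2.97, 4.23 and 13.2 CPM in BCR-ABL 1, 2 and 4 and 3.24 CPM in Control.

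Whether the lower level was broad was asked in single wells. The summed level of the 45 genes had a median over wells of 1498, 1616 and 1422 CPM in BCR-ABL 1, 2 and 4 and of 2142 CPM in Control. The mean of the BCR-ABL medians was 1512 ± 97.8 CPM (SD, n = 3), 29.4% below Control. The whole distribution lay lower: 94.7%, 83.6% and 95.7% of BCR-ABL wells lay below the Control median, and the upper quartile of BCR-ABL 1, 2 and 4 was 1797, 1846 and 1663 CPM against a lower quartile of 1780 CPM in Control. Below the 10th percentile of Control wells (1595 CPM) lay 57.9%, 45.9% and 67.4% of BCR-ABL wells. With wells thinned to equal depth the medians were 1591, 1630 and 1425 CPM against 2142 CPM. An exact permutation test of 3 sets against 1 cannot go below p = 0.25, so it cannot pass 0.05 and none was run.

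**Figure D2:**
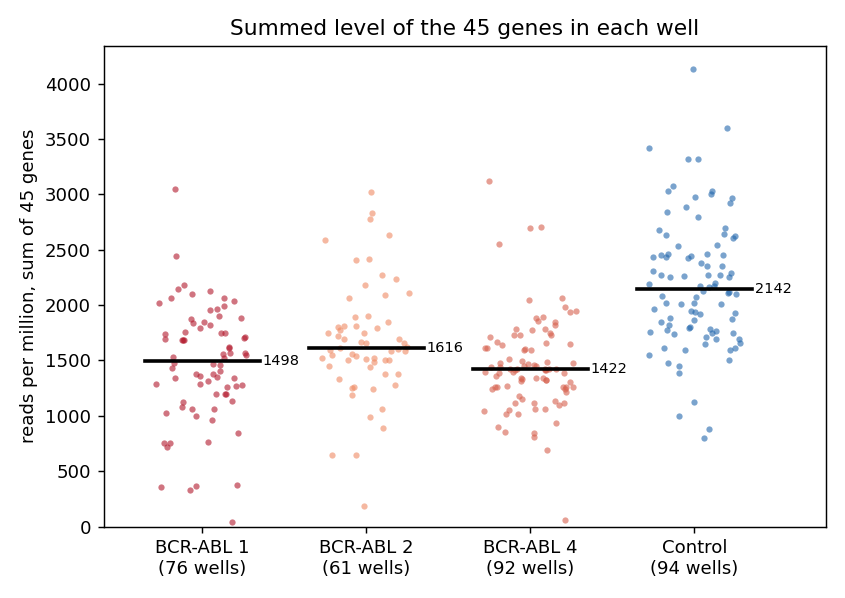
Summed CPM of the 45 genes in each kept well (1 point per well, linear axis from 0) of BCR-ABL 1, 2 and 4 and Control; bars and numbers give the median. The BCR-ABL clouds centre on 1498, 1616 and 1422 and the Control cloud on 2142. The ranges overlap in part, with the lowest well in BCR-ABL and the highest in Control.

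A few genes made up much of that gap. Of the 639 CPM between the summed levels, Ifi209 gave 21.9%, Psmb8 13.5%, Psmb9 7.46%, Tap1 6.84% and Ifi203 6.37%, together 56.03%. Without Ifi203 and Ifi209 the median well of BCR-ABL still stood at 1487 ± 92.7 CPM (SD, n = 3) against 1903 CPM in Control, 21.9% lower. Without those and the antigen processing genes it stood at 813 ± 54.8 CPM against 998 CPM in Control, 18.5% lower. By class, the median well was 66.7% lower for sensors (98.3 ± 5.33 CPM in BCR-ABL, 295 CPM in Control), 51.6% lower for oligoadenylate synthetases (9.40 ± 3.99 against 19.4 CPM) and 37.7% lower for antiviral effectors (146 ± 17.1 against 234 CPM). Ifi203 and Ifi209 carry most of the sensors' value: the other 7 sensors, taken after the data had been seen, had a median of 68.5 ± 12.4 CPM in BCR-ABL and 77.3 CPM in Control, 11.4% lower and within the spread of the BCR-ABL sets. The median well was 21.7% lower for GTPases, 21.2% lower for antigen processing and 19.5% lower for nuclear and PARP proteins, and 7.89% lower for signalling genes, where the spread of the BCR-ABL sets (SD 19.9 CPM) exceeded the difference between 148 and 161 CPM.

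The genes fell into 3 classes by how widely they were read, with limits chosen after the data had been seen. A total of 12 members reached 5 CPM in at least 50% of wells of every set, 16 did so in under 20% of wells of every set, and 17 lay between. The broad class holds the antigen processing genes, Bst2, Trim25, Trim30a, Sp100, Ifi35, Ifi47, Irgm1, Nmi and Adar. In it 10 of 12 had a negative log2 fold change (median -0.34), and no well held more than 11.9% of a gene's reads in BCR-ABL or 14.7% in Control. Tap1 was read at 5 CPM in 81.6 to 83.6% of wells in BCR-ABL and 91.5% in Control, and Ifi47 in 82.9 to 88.5% in BCR-ABL and 77.7% in Control, so its lower level did not go with fewer wells.

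In the intermediate class the share of wells moved most for the PYHIN genes. Ifi203 reached 5 CPM in 31.6%, 36.1% and 27.2% of BCR-ABL wells and 72.3% of Control wells, with exact 95% intervals of 21.4 to 43.2%, 24.2 to 49.4% and 18.4 to 37.4% in BCR-ABL and 62.2 to 81.1% in Control. Ifi209 did so in 36.8%, 36.1% and 7.61% of BCR-ABL wells and 69.1% of Control wells. For these genes fewer wells carried the transcript at this level in each BCR-ABL set than in the Control set. The intervals treat wells of a set as independent and hold no spread between sets. Intervals cover counting error only, since reads without molecular identifiers are not independent molecules. Stat2, Dhx58, Samd9l and Parp9 were read more widely in every BCR-ABL set than in Control. Stat2 reached 5 CPM in 38.2%, 50.8% and 51.1% of BCR-ABL wells against 34% in Control. Parp9 did so in 35.9 to 44.3% of BCR-ABL wells against 35.1% in Control, though its level was lower in BCR-ABL.

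The rare class carried the largest fold changes and the weakest basis for them. Of its 14 tested genes 13 were negative on the log2 scale, with a median of -1.74. These include Mx1 and Ifi44, which passed the filter on low counts through Control alone. A single well held between 19.8 and 100% of a gene's reads in BCR-ABL and between 15.8 and 85.1% in Control. Zbp1 was the most widely read of them in Control, at 5 CPM in 15 of 94 wells, against 3 of 76, 3 of 61 and 5 of 92 BCR-ABL wells.

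**Figure D3:**
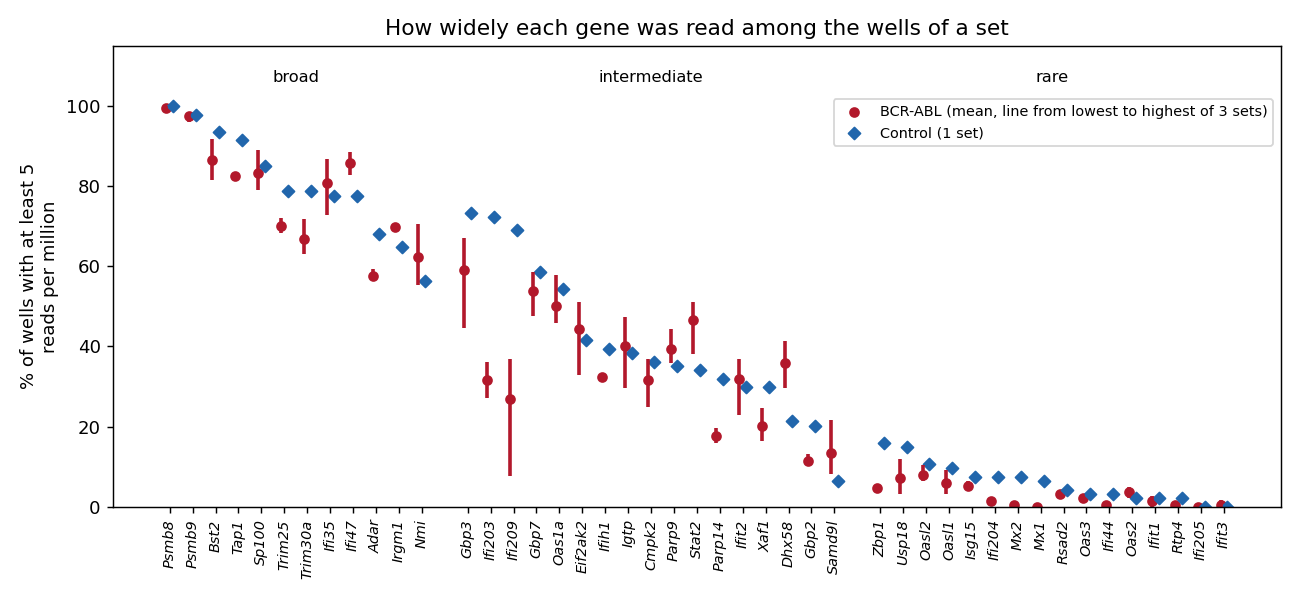
Percentage of wells in which each gene reached 5 CPM: BCR-ABL as the mean of 3 sets with a line from the lowest to the highest set, left, and Control as a diamond, right, in the broad, intermediate and rare classes. Ifi203 and Ifi209 show the widest gap, with 72.3% and 69.1% of Control wells above 27.2 to 36.1% and 7.61 to 36.8% of BCR-ABL wells.

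A cell that answers interferon is known to switch on many inducible genes at once, so 20 strongly inducible members, from Isg15 and the Ifit, Mx and Oas genes to Ifih1, were counted per thinned well at 10 or more reads. The median well held 2 of them in every set. At least 8 were held by 1 of 65, 1 of 54 and 0 of 81 BCR-ABL wells and by 1 of 90 Control wells, that is by 1.54% (0.0389 to 8.28%), 1.85% (0.0469 to 9.89%) and 0% (up to 4.45%) in BCR-ABL and 1.11% (0.0281 to 6.04%) in Control. At this depth and number of wells no difference in such wells was detectable. At least 5 were held by 3.08%, 5.56% and 4.94% of BCR-ABL wells and by 12.2% of Control wells (6.26 to 20.8%), and the BCR-ABL intervals, up to 10.7, 15.4 and 12.2%, overlap that of Control. The fullest BCR-ABL and Control wells held Ifit2, Oas1a, Oas3, Oasl2, Cmpk2, Zbp1, Xaf1, Dhx58 and Ifih1 (a BCR-ABL 1 well), and Ifit1, Ifit2, Oas1a, Oasl1, Oasl2, Rsad2, Xaf1 and Ifih1 (the Control well).

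The rare inducible genes were mostly read singly in BCR-ABL wells and were read together more often in Control wells. Of 14 such genes at least 1 was read at 10 or more reads in 25 of 76, 18 of 61 and 27 of 92 BCR-ABL wells and in 46 of 94 Control wells. Of these wells, 84%, 77.8% and 85.2% in BCR-ABL 1, 2 and 4 and 54.35% in Control held exactly 1. At least 2 were read together in 4, 4 and 4 BCR-ABL wells and in 21 Control wells. At least 3 were read together in 2, 1 and 2 BCR-ABL wells and in 12 Control wells. Whether the genes were read together more often than if independent was not tested. Mx1 and Mx2, neighbours on chromosome 16, shared no BCR-ABL well (0 wells) and 2 Control wells, though Control had 6 wells with Mx1 and 12 with Mx2.

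**Figure D4:**
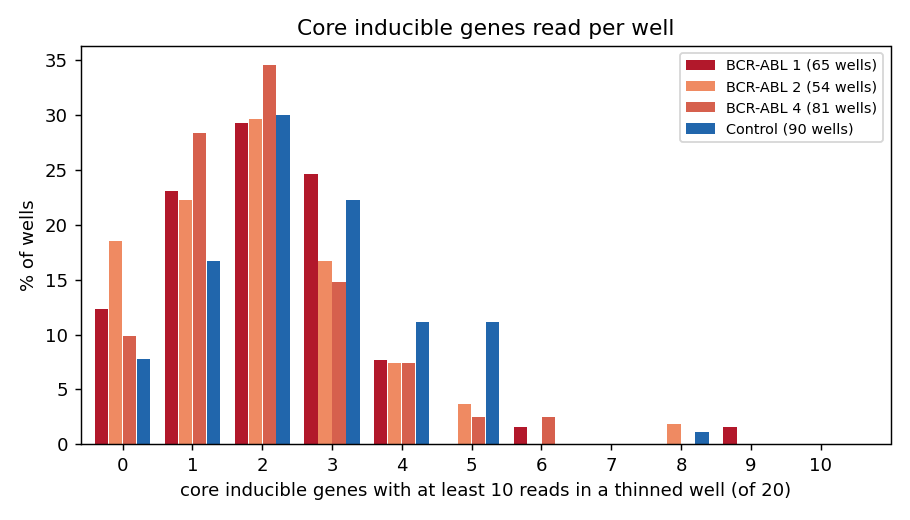
Percentage of thinned wells (y axis) by the number of the 20 core inducible genes with at least 10 reads (x axis) in BCR-ABL 1, 2 and 4 and Control, left to right in each group of bars. Every set has its median at 2, and Control has more wells at 5 genes, while 8 or more genes are found in at most 1 well of a set.

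Because the sets differ in how many cells carry Irf8, levels were compared within wells with at least 10 Irf8 reads (27, 33 and 16 in BCR-ABL, 78 in Control) and within wells with under 10 (38, 21 and 65 in BCR-ABL, 12 in Control). Among wells with Irf8, the median summed level was 1728, 1667 and 1696 CPM in BCR-ABL 1, 2 and 4 and 2200 CPM in Control, 22.9% lower in BCR-ABL. Without Ifi203 and Ifi209 it was 1660 ± 32.6 CPM in BCR-ABL (SD, n = 3) and 1909 CPM in Control, 13.05% lower, and the antigen processing genes were 6.93% lower there, at 812 ± 72.7 against 873 CPM. Among wells with under 10 Irf8 reads it was 1386, 1501 and 1387 CPM in BCR-ABL and 1721 CPM in Control, 17.2% lower. The sum was lower in BCR-ABL within each kind of well. Wells were split at 10 Irf8 reads only, so BCR-ABL and Control wells of the same kind may still differ in Irf8 level. That level was not compared within a kind of well. Not every class was lower. In wells with under 10 Irf8 reads the sensors had a median of 91.9 ± 14.1 CPM in BCR-ABL (SD, n = 3) and 51.1 CPM in Control. There the oligoadenylate synthetases had 11.1 ± 7.80 against 8.89 CPM, and nuclear and PARP proteins 123 ± 26.4 against 113 CPM. With Irf8, 35 of 42 members tested had a negative log2 fold change (48.4% of all genes; median -0.47 against 0.02 for all genes), 7 were lower (2.61%) and 1, Oas2, higher (2.42%) at an unadjusted p under 0.05. With under 10 Irf8 reads, 26 of 40 were negative (40.8% of all genes; median -0.33 against 0.24), 8 were lower (7.6%) and 3 higher (12.7%). Only 12 Control wells stand behind the last comparison.

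The share of members that differed with Irf8 in the same direction in every set was near that of all genes. In all 4 sets, wells with Irf8 stood above the others in Ifi203, Ifi209, Gbp3, Psmb8 and Psmb9 (5 of 43 members; 10.3% of all genes) and below them in Ifih1, Ifit2, Xaf1 and Sp100 (4 of 43; 9.88% of all genes). Ifi209 stood at 77.8, 34.3 and 4.01 CPM in BCR-ABL wells with Irf8 and 189 CPM in such Control wells. Without Irf8 it stood at 10.6, 4.59 and 2.94 CPM in BCR-ABL and 0.76 CPM in Control, where 0 of 12 wells held 10 reads (upper exact bound 26.5%). Gbp3 hardly differed in wells with Irf8, at 99.5, 100.4 and 72.1 CPM in BCR-ABL and 103 CPM in Control (log2 fold change -0.16, SE 0.27). Without Irf8 it stood at 40.1, 23.9 and 31.99 CPM in BCR-ABL and 1.52 CPM in Control, where 1 of 12 wells held 10 reads. In Cmpk2 the order turned, from 22.3, 18.2 and 21.9 CPM in BCR-ABL against 41.6 CPM in Control with Irf8. Without Irf8 it stood at 13.9, 35.4 and 20.1 CPM in BCR-ABL against 1.64 CPM in Control. Ifi203 stood at 19.6, 22 and 13.5 CPM in BCR-ABL wells with Irf8 against 59.98 CPM in Control. Without Irf8 it stood at 10.2, 2.54 and 5.15 CPM in BCR-ABL 1, 2 and 4 against 9.11 CPM in Control. There its log2 fold change was -0.57 (SE 0.88), with BCR-ABL 1 above Control.

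Other members were lower in BCR-ABL in both kinds of well. Bst2 stood at 65.2, 79.2 and 60.8 CPM in BCR-ABL against 97.9 CPM in Control with Irf8, and at 50.9, 65.9 and 49.1 CPM in BCR-ABL against 100 CPM in Control without. Gbp2 stood at 3.17, 4.47 and 9.67 CPM in BCR-ABL against 15.01 CPM in Control with Irf8, and at 5.71, 10.6 and 5.17 CPM in BCR-ABL against 24.5 CPM in Control without. In both genes no BCR-ABL set reached Control in either kind of well. A test of the difference between the 2 kinds of well (edgeR, interaction with the set as a block, chosen after the data had been seen) gave an unadjusted p under 0.05 for 9 of 43 members (12.7% of all genes), led by Gbp3 (p = 0.000674) and Cmpk2 (p = 0.00365), and 0 genes of all passed after adjustment (smallest adjusted p of a member 0.238).

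**Figure D5:**
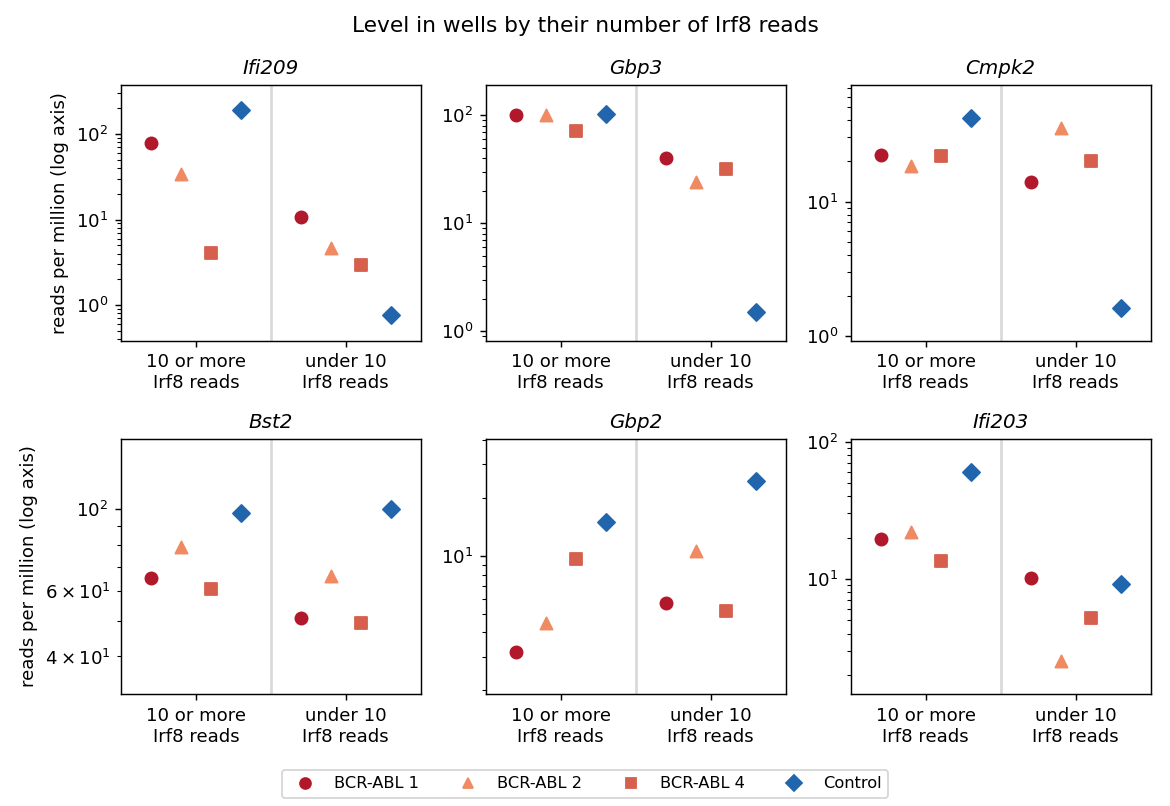
CPM (log axis, each panel with its own range) of 6 genes in wells with 10 or more and with under 10 Irf8 reads after thinning, in BCR-ABL 1, 2 and 4 and Control; each point is 1 set. Bst2 and Gbp2 are lower in BCR-ABL than in Control in both kinds of well. For Ifi209, Gbp3 and Cmpk2 the Control point is the highest at 10 or more Irf8 reads and the lowest at under 10. For Ifi203 every BCR-ABL point lies below Control at 10 or more Irf8 reads, whereas BCR-ABL 1 lies above it at under 10.

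The rest of the pathway was read from further lists. Of 8 interferon genes, 4 had no read in any set and all 8 stayed under 1 CPM, with a sum of 0.111, 0.00824 and 0.121 CPM in BCR-ABL and 0.0788 CPM in Control. Among receptors, 1 of 5 tested had an unadjusted p under 0.05, and it was lower. Ifnar2, the chain that binds type I interferon tightly, stood at 131, 143 and 121 CPM in BCR-ABL and 221 CPM in Control (log2 fold change -0.73, SE 0.16, p = 0.00847, adjusted p = 0.624), and Ifnar1 at 75.6, 60.97 and 64.3 CPM against 93.7 CPM (p = 0.0678). Ifngr1, of the type II receptor, went the other way, at 1142, 852 and 1597 CPM in BCR-ABL and 659 CPM in Control (0.88, SE 0.37, p = 0.0678).

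Of 10 kinases and transcription factors, 8 had a negative log2 fold change, while 2 were lower and 1 was higher by unadjusted p. Irf9, a DNA-binding partner of STAT proteins, stood at 25.2, 28.3 and 20.9 CPM in BCR-ABL and 65.04 CPM in Control (log2 fold change -1.37, SE 0.24, p = 0.00321, adjusted p = 0.604). Stat3, which answers other cytokines, stood at 145, 140 and 203 CPM in BCR-ABL and 96.2 CPM in Control (0.78, SE 0.26, p = 0.0363). Among wells with Irf8, Irf9 stood at 22.9, 34.8 and 32.7 CPM in BCR-ABL against 70.4 CPM in Control (-1.20, p = 0.0124). In wells with under 10 Irf8 reads Irf9 stood at 28.8, 12.6 and 16.4 CPM in BCR-ABL against 28.9 CPM in Control (-0.55, p = 0.378), so there BCR-ABL 1 was level with Control. Ifnar2 likewise differed by -0.64 (p = 0.0101) in wells with Irf8 and by -0.17 (p = 0.378) in the others, on the log2 scale; the difference between the kinds of well was not tested for these genes.

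Of 6 inhibitors, 0 were lower and 1 was higher at an unadjusted p under 0.05: Socs3, at 9.80, 7.97 and 1.67 CPM in BCR-ABL and 0.387 CPM in Control (p = 0.0336). Of 11 tested genes of nucleic acid sensing upstream of interferon, 1 was lower, Tlr9, which stayed under 1 CPM in each set, and 0 were higher. A second list of 68 interferon-inducible genes outside the 45 was split in direction: of 57 tested, 28 were negative, with a median log2 fold change of 0.01. An unadjusted p under 0.05 was reached by 7 that were lower (12.3%, against 3.39% of all genes) and 2 that were higher (3.51%, against 3.79%). The list summed to 2951, 3067 and 2875 CPM in BCR-ABL and 4196 CPM in Control, with Ly6e the main part of that gap. Ly6e, a membrane protein, was lower, at 1427, 1570 and 1341 CPM in BCR-ABL and 2646 CPM in Control (-0.85, SE 0.13, p = 0.00161). Ifi206, another PYHIN gene, was barely read, at 0, 0 and 0.00709 CPM in BCR-ABL and 0.623 CPM in Control (p = 0.00786). It too passed the filter on low counts through Control alone. Uba7, the enzyme that activates ISG15, was higher, at 67.5, 53.6 and 52.1 CPM in BCR-ABL and 26.6 CPM in Control (1.14, SE 0.26, p = 0.00856).

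MHC class I genes, which work with the antigen processing members, were negative for 16 of 18, with a median log2 fold change of -0.23 and 2 of them lower by unadjusted p. B2m, the light chain of class I, stood at 2669, 2698 and 2387 CPM in BCR-ABL and 3349 CPM in Control (-0.35, SE 0.12, p = 0.0345), and H2-Q7 stood at 19.2, 15.1 and 17.2 CPM in BCR-ABL and 32.9 CPM in Control (-0.92, SE 0.25, p = 0.0163).

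Markers of mature cells that could carry interferon-stimulated genes were also read. Of the 7 macrophage markers 6 had a negative log2 fold change; C1qa and C1qc had no read in BCR-ABL and stood at 0.566 and 0.938 CPM in Control. The list summed to 30.5, 53.4 and 102 CPM in BCR-ABL and 29.7 CPM in Control, of which Vcam1 gave 26.4, 40.7 and 95.6 CPM in BCR-ABL and 6.48 CPM in Control. Of the 7 markers of plasmacytoid dendritic cells, which make type I interferon, Siglech stood at 0.00793, 0 and 0.0142 CPM in BCR-ABL and at 0.372 CPM in Control, Klk1 was at 0 in all sets, and the list summed to 35, 36.8 and 32.3 CPM in BCR-ABL and 62.2 CPM in Control, nearly all from Tcf4. The 4 eosinophil markers summed to 0.571, 6.26 and 1257 CPM in BCR-ABL and 3.77 CPM in Control, so BCR-ABL 4 stands apart from the rest in them. In 2 Control wells at least 2 macrophage genes had 10 reads, and 1 BCR-ABL 4 well held 19454 genes. Without these 3 wells 35 of 43 members stayed negative, with a median of -0.59 and 10 at an unadjusted p under 0.05. The part of the monocyte, neutrophil, macrophage and eosinophil markers in the lower sum of the list was not tested.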

How the data were processed

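Sorted mouse GMPs, 1 per well, were sequenced as full-length cDNA in 4 sets of 96 wells. The deposited count tables hold whole-number reads per Ensembl gene; GSNAP, HTSeq 0.5.3p3 and the build mm10 are named by the submitters' processing notes, while for the annotation release and strand setting the sources used here name nothing. Of all reads counted 44.9% fell on genes, 0.265% on spike-ins, 7.67% on no feature, 6.24% on several features and 40.9% were not aligned; only gene rows entered totals and tests. Symbols and positions come from GENCODE vM21, promoter windows from RefSeq (GRCm38.p6).

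Wells were kept from 50000 gene reads and 1000 detected genes upward (323 of 384), at 50434 to 4758711 reads per well (median 1483694). The set was the replicate: reads were summed per set and tested with edgeR 4.0.16 (quasi-likelihood, TMM, filterByExpr; R 4.3.3), p-values being adjusted over all 20324 genes by Benjamini-Hochberg. For shares of wells and the split by Irf8, 290 wells were thinned to 674952 reads (33 shallower wells left out). Intervals are exact 95% binomial ones and cover counting error only, since no molecular identifiers were used. Full values are given for 32 members: the 3 of each role with the highest mean CPM per kilobase, those with an unadjusted p under 0.05, and Isg15, Ifit1, Ifit3, Mx1, Rsad2, Oas1a and Usp18; pathway lists give up to 3 genes with the smallest p. Stat2, Ifi204 and Samd9l were named after their values were seen, as were marker genes at 0. Members and lists were chosen with earlier results of these data known. Alternatives were DESeq2 1.42.0, limma-voom 3.58.1, other well filters, thinning, equal weights, wells left out and sets left out. No doublet caller was run on 1 cell per well. Values of a gene of the pathway lists are not reported here.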

Additional observations from a re-analysis of the deposited data

Results flagged for a closer look

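In 5 genes the BCR-ABL sets lay on opposite sides of Control in wells with at least 10 Irf8 reads and in wells with fewer, with only 12 Control wells in the second comparison. The log2 fold change of Ifi209 was -2.25 in wells with Irf8 and 3.03 in the others (interaction p = 0.0108, adjusted p = 0.277). That of Gbp3 was -0.16 and 4.43 (p = 0.000674, adjusted p = 0.238). For Cmpk2 it was -0.98 and 3.85 (p = 0.00365, adjusted p = 0.251). For Trim30a it was -0.96 and 0.61 (p = 0.00443, adjusted p = 0.254). Oas1a, at -0.72 and 0.60, did not reach an unadjusted p of 0.05 (p = 0.0587, adjusted p = 0.416). All are edgeR quasi-likelihood tests over 3 BCR-ABL sets and 1 Control set with the set as a block, and none of the 5 differences passed adjustment over all genes.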

How the results depend on the processing

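The median log2 fold change of the 43 tested genes stayed negative under all 15 alternatives. Leaving out each BCR-ABL set in turn gave medians of -0.59 to -0.54, 36 to 38 negative genes, 9 to 15 genes at an unadjusted p under 0.05 (15 without BCR-ABL 2) and 0 past adjustment. DESeq2 called 4 members against 0 with edgeR. In wells with under 10 Irf8 reads the median was -0.33. At least 8 core genes at 30 reads each were held by 0% of wells in BCR-ABL 1, 0% in BCR-ABL 2 and 0% in Control, and with another thinning seed by 0% in BCR-ABL 2; at least 5 core genes were held by 4.94% in BCR-ABL 4 and 12.2% in Control. Of 459 values of named genes 432 kept direction and side of the threshold, 4 passed it under DESeq2 and 23 reversed, in 13 genes; the cause was not tested. With thinned wells Dhx58 stood at -0.17 and Igtp at -0.14, with equal weight per well at -0.17 and -0.08, and without the highest wells Igtp stood at -0.02. In wells with at least 10 Irf8 reads Ifi35 stood at -0.07 and Eif2ak2 at -0.28. In wells with fewer, Usp18 stood at 0.10, Trim25 at 0.02, Dhx58 at -0.35, Ifi209 at 3.03, Oas1a at 0.60, Oasl2 at 1.08, Cmpk2 at 3.85, Trim30a at 0.61, Gbp3 at 4.43 and Igtp at -0.22. Over the fits that leave out 1 set, Ifi35 ran between -0.01 and 0.18, Dhx58 between -0.17 and 0.42, Eif2ak2 between -0.09 and 0.29, Ifit1 between -1.52 and 0.04 and Igtp between -0.02 and 0.19. Without the highest well of each set 7 genes had an unadjusted p under 0.05, and Usp18, Cmpk2 and Tap1 no longer did. No paired analysis was possible because Control has 1 set, which shares its number with 1 BCR-ABL set.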
